A study of Mus musculus with 12 samples.

Results

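The 7 cyclin-dependent kinase inhibitor genes of the mouse, Cdkn1a, Cdkn1b, Cdkn1c, Cdkn2a, Cdkn2b, Cdkn2c and Cdkn2d, were followed across the immune cells of MC38 tumors. The rule that selects them is a list of gene names and uses no measured value, although earlier results of these data were known when it was drawn up. They are 7 of the 31053 genes in the matrix of unique molecular identifiers (UMIs, each standing for 1 captured RNA molecule). MC38 is a colon adenocarcinoma line of C57BL/6 origin. It was grown under the skin of C57BL/6 mice that received daily subcutaneous doses of vehicle or of the EZH2 inhibitor (EZH2i) PF-06821497 at 100 mg/kg, for 7 or for 16 days, with 3 mice in each of the 4 groups. Tumors were taken on day 17, CD45+ cells were enriched on beads, and single-cell 3′ libraries were made. The 12 libraries are pooled in 1 matrix, where a cell carries a library number but no mouse. The sample labels tie no number to a mouse, so no cell was given a treatment and EZH2i was not compared with vehicle here.

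Cyclin-dependent kinases drive the cell cycle when a cyclin is bound to them. The INK4 inhibitors (Cdkn2a as p16Ink4a, Cdkn2b, Cdkn2c and Cdkn2d) bind Cdk4 and Cdk6 and keep the D cyclins from activating them, which holds the retinoblastoma proteins on E2F factors. The CIP/KIP inhibitors (Cdkn1a or p21, Cdkn1b or p27, Cdkn1c or p57) act on a wider range of cyclin and kinase pairs, in particular those with Cdk2. Polycomb repressive complexes, whose methyltransferase is EZH2, are known to silence the locus that holds Cdkn2a and Cdkn2b in dividing cells. Cdkn2a also encodes p19Arf, which stabilises p53 and shares no reading frame with p16Ink4a.

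In the mm10 annotation (GENCODE M21), Cdkn2a lies on the minus strand of chromosome 4 at chr4:89274471-89294653 and Cdkn2b at chr4:89306299-89311039, with 11645 bases between them. Cdkn2a has 2 annotated transcripts of 3 exons each. They start at separate exons, the upstream one at chr4:89294334-89294653 and the downstream one at chr4:89281986-89282192, and share 575 exon bases in exons 2 and 3. The libraries read the 3′ end, which lies in exon 3. A Cdkn2a UMI therefore does not tell p16Ink4a from p19Arf RNA. The other members lie at chr4:109660876-109667189 (Cdkn2c), chr9:21288410-21291407 (Cdkn2d), chr6:134920401-134925513 (Cdkn1b), chr17:29090976-29100727 (Cdkn1a) and chr7:143458339-143461050 (Cdkn1c). No annotated gene overlaps a member on its own strand, while Cdkn1a and Cdkn1c each overlap 1 gene on the opposite strand.

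The upstream sequences of the 3 starts at the Ink4/Arf locus are shown because the data cannot separate the first 2 of them. They are RefSeq promoter bases on GRCm38.p6, from the minus strand, ending before the annotated first exon, and capitals mark a match to E2F-type letters.
Cdkn2a upstream start, chr4:89294654-89294869: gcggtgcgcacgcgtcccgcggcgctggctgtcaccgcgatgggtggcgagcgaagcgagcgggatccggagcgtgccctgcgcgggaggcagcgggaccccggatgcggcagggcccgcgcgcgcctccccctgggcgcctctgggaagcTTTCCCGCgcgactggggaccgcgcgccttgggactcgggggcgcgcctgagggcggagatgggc
Cdkn2a downstream start, chr4:89282193-89282442: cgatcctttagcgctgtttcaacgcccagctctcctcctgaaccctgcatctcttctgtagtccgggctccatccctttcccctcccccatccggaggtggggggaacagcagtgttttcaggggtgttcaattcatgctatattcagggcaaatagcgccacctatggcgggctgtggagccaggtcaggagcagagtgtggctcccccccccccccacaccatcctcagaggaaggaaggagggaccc
Cdkn2b start, chr4:89311040-89311282: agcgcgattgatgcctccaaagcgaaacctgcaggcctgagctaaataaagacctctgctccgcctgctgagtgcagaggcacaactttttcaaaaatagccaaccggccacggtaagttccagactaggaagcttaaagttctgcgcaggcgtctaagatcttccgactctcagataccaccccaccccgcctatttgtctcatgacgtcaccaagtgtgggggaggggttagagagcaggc

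The letters searched were TTTCCCGC, TTTCGCGC, TTTGCCGC and TTTGGCGC on both strands, in windows from 250 bases before to 50 after each RefSeq start. They occurred in 2.26% of 32851 windows, and in 1 of the 9 windows of the 6 members that have one, at the upstream Cdkn2a start. That window held 45 CG dinucleotides, more than 98.1% of all windows, against a median of 7. The downstream Cdkn2a window held 12 and the Cdkn2b window 18. The windows at the Cdkn2c and Cdkn2d starts held 8 to 33 CG dinucleotides and none of these letters. A match in letters is a description of the sequence and not a measured binding site.

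After the limits on cells that the study's methods give, 128912 of 140639 barcodes were kept, with 3330 to 37413 cells and 20580550 to 100452772 UMIs per library and a median of 2291 to 15081 UMIs per cell. Cells were assigned to classes by UMIs of lineage genes, and 68843 cells (53.4%) met 1 gate. In the 12 classes with at least 50 cells, 28 of 36 markers that the gates did not use were highest in their own class and all 36 were above the median of the other classes. The regulatory T cell gate held 37 cells and the basophil or mast cell gate 48, and no cell met the tumor gate, so none of these was described. Of the barcode sequences, 1.63% occurred in more than 1 library, at most 182 in a pair of libraries. UMIs of Y-linked genes were at 128 to 209 CPM in libraries 1 to 6 and at 0 in libraries 7 to 12, although the study's methods give female mice.

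Levels are UMIs of a gene per 1000000 UMIs (CPM), summed over the cells of a class, with exact Poisson 95% intervals that cover counting error only. Library values are given where a library held at least 20 cells of the class. The sample labels give the library numbers no group, so no test was run over them, and the order of 2 classes is given by the number of libraries that show it.

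Cdkn1a, the p53-inducible member, had UMIs in every class and was highest in myeloid cells. Neutrophils had 1456 CPM (95% interval 1415 to 1499), patrolling monocytes 707, Ly6c2 monocytes 682, Cd209a dendritic cells 654 and macrophages 535. The level was 356 CPM in mature dendritic cells, 182 in conventional CD4+ T cells, 144 in type 1 dendritic cells, 109 in CD8+ T cells, 98.7 in NK cells, 96.0 in plasmacytoid dendritic cells and 39.9 in B cells. Neutrophils were above macrophages of the same library in 10 of 10 libraries and above Ly6c2 monocytes in 9 of 10. Macrophages were above mature dendritic cells in 12 of 12 libraries, whereas Ly6c2 monocytes were above macrophages in only 8 of 12, so the levels of these neighbours were not separated by the libraries. In cells thinned to 1000 UMIs, Cdkn1a was seen in 60.3% of neutrophils, 39.2% of macrophages, 8.66% of CD8+ T cells and 2.34% of B cells. Thinning leaves out cells below the depth. It kept 968 of 1476 neutrophils, 58270 of 58313 macrophages, 3210 of 3412 CD8+ T cells and 171 of 207 B cells. Without thinning the shares of all cells were 62.3%, 83.5%, 23.3% and 5.31%, at median depths of 1417, 6392, 3186.5 and 1364 UMIs. In the unthinned shares macrophages were above neutrophils, against the order of the CPM, and no order is read from them.

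**Figure D1:**
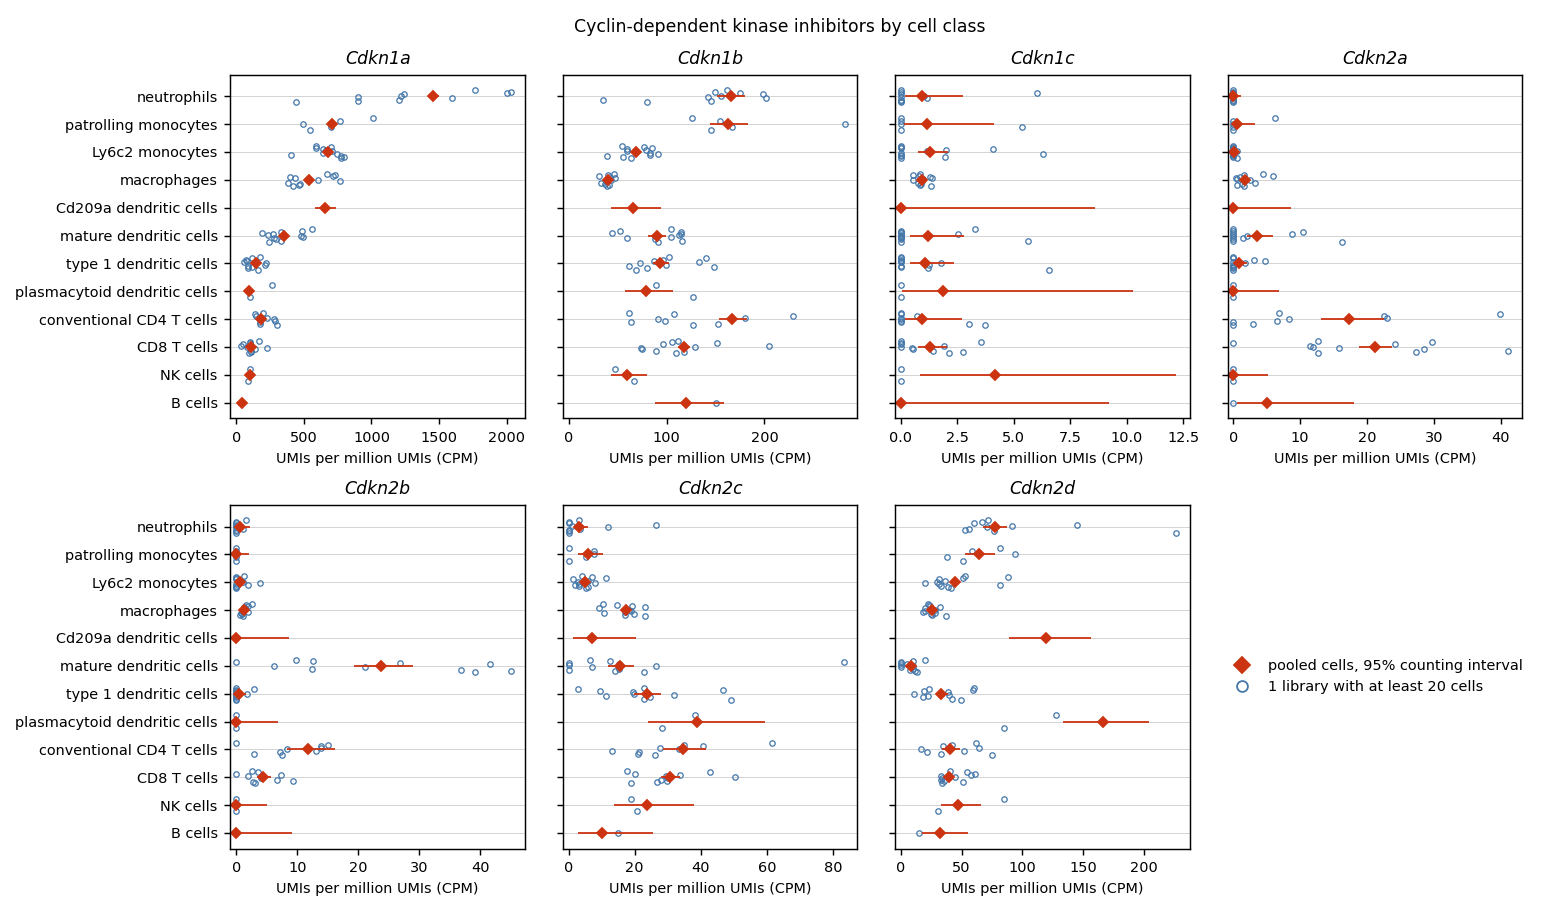
CPM of each member (x axis) in 12 cell classes (y axis). Red diamonds are pooled cells with 95% counting intervals and blue circles are libraries with at least 20 cells of the class. Cdkn1a sits furthest right in neutrophils, Cdkn2a in both T cell classes and Cdkn2b in mature dendritic cells at 23.7 CPM.

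Cdkn1a also varied between libraries. In macrophages the 12 libraries ran from 383 CPM in library 4 over a median of 503 to 766 in library 5, and libraries 10, 11 and 12 had 715, 731 and 673 CPM. The ranges of libraries 1 to 6, with Y-linked UMIs, and of libraries 7 to 12 overlapped, at 383 to 766 and 398 to 731 CPM. In neutrophils the 10 libraries ran from 440 CPM in library 1 over a median of 1228 to 2034 in library 11, with 1998 in library 10 and 1763 in library 12. These 3 libraries were thus among the highest in both classes, while library 4 was the lowest in macrophages and stood at 1596 CPM in neutrophils. In CD8+ T cells the 11 libraries ran from 33.2 CPM in library 8 to 225 in library 6. C1q UMIs, which T cells lack, were at 17.3% of the macrophage level in the CD8+ T cells of library 6, and at 1.17% to 5.24% in the other 10 libraries. Cdkn1a of CD8+ T cells was at 37.0% of the macrophage level in library 6 and at 7.62% to 24.6% in the others, above the C1q share in all 11. Without library 6 the pooled CD8+ T cell level was 90.0 CPM. In library 6 the C1q share was also 24.1% in conventional CD4+ T cells, 18.7% in type 1 dendritic cells and 27.2% in mature dendritic cells, and in library 5 it was 13.1% in type 1 dendritic cells. These 2 libraries held 173 and 245 of the 808 Cdkn1a UMIs of type 1 dendritic cells. The Cdkn1a share was above the C1q share in every library of these 3 classes. However, macrophages are gated on C1q UMIs, and neutrophils and monocytes had more Cdkn1a than macrophages. A Cdkn1a share above the C1q share, here or in CD8+ T cells, thus does not measure the part of RNA from other cells. That part was not tested. For NK, B and plasmacytoid dendritic cells no such share was computed, and their low levels are not read as expression.

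**Figure D2:**
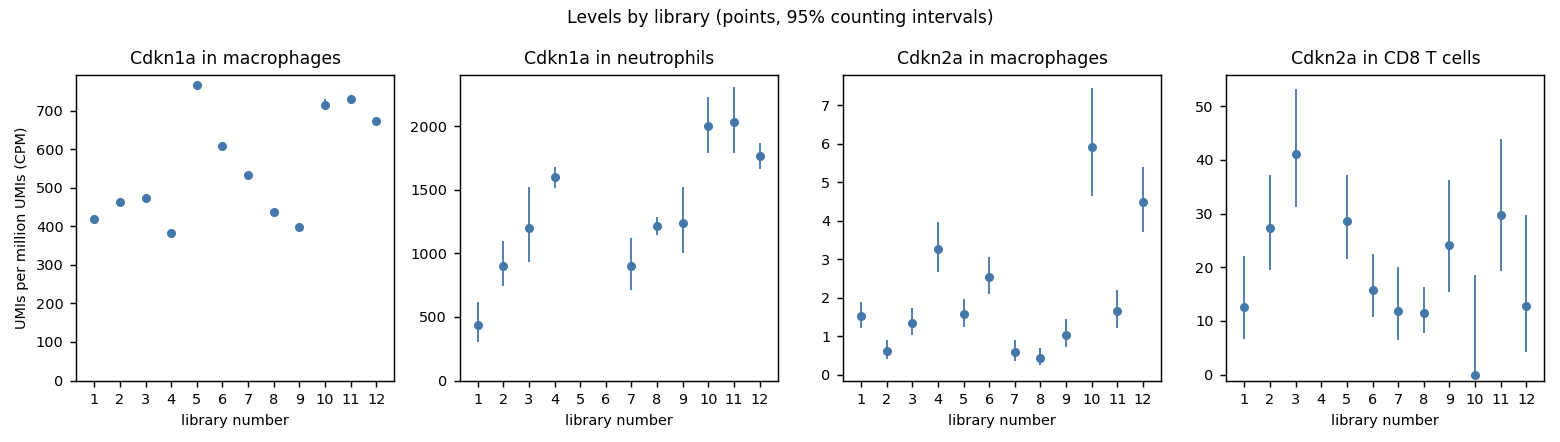
CPM (y axis) of Cdkn1a in macrophages and neutrophils and of Cdkn2a in macrophages and CD8+ T cells for each library number (x axis). Points are libraries with at least 20 cells of the class and lines are 95% counting intervals. Cdkn2a in macrophages is highest in libraries 10 and 12, at 5.93 and 4.50 CPM.

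Cdkn1b, which is known to be kept low in dividing cells by Skp2-dependent degradation of its protein, was lowest in macrophages at 40.3 CPM. Conventional CD4+ T cells had 167 CPM, neutrophils 165, patrolling monocytes 163, B cells 120 and CD8+ T cells 118. The 95% counting intervals of the highest 3 overlapped, and their order is not resolved. Library 8 gave 314 of the 541 UMIs of conventional CD4+ T cells, whose libraries ran from 61.6 to 229 CPM over a median of 107. The library medians were 152 CPM in neutrophils, 154 in patrolling monocytes and 110 in CD8+ T cells. CD8+ T cells were above macrophages in 11 of 11 libraries, mature dendritic cells and Ly6c2 monocytes in 12 of 12, and neutrophils in 9 of 10. Across libraries CD8+ T cells ran from 74.3 to 204 CPM, and macrophages only from 30.7 to 47.1.

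Cdkn1c, an imprinted member known mainly from development, was close to the limit of detection. Macrophages held 426 UMIs, a level of 0.947 CPM (0.859 to 1.04), and no other class held more than 18. The NK cell value of 4.17 CPM rests on 3 UMIs, with an interval of 0.860 to 12.2. No order between classes can be read at this depth.

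Cdkn2a, the p16Ink4a and p19Arf gene, was highest in T cells. CD8+ T cells held 295 UMIs (21.2 CPM, 18.8 to 23.7) and conventional CD4+ T cells 56 (17.3 CPM, 13.1 to 22.5). Mature dendritic cells had 3.60 CPM and macrophages 1.74 (1.62 to 1.86). No UMI was found in 1476 neutrophils, which allows a level of up to 0.944 CPM at a floor of 3 UMIs, nor in NK cells (up to 4.17 CPM), plasmacytoid dendritic cells (up to 5.54) or Cd209a dendritic cells (up to 7.01). The upper ends of the exact Poisson 95% intervals were wider, at 1.16, 5.13, 6.81 and 8.62 CPM. CD8+ T cells ran from 0 CPM in library 10, where 68 cells were gated, over a median of 15.8 to 41.2 in library 3. They were above macrophages of the same library in 10 of 11 libraries, and above conventional CD4+ T cells in only 6 of 9. The conventional CD4+ T cell UMIs came mostly from 3 libraries, with 5 in library 7, 31 in library 8 and 16 in library 9. The other 6 libraries held 0 or 1 each, and this class was above macrophages in 7 of 9 libraries. Its UMIs were also uneven between cells. Only 28 of 698 cells had a UMI, 8 of these had at least 3 and the highest had 9. In cells thinned to 2000 UMIs, 3.42% of 2453 CD8+ T cells and 0.330% of 54497 macrophages had a Cdkn2a UMI. Unthinned, the shares were 6.39% (5.59 to 7.26) and 1.02% (0.940 to 1.11), and in neutrophils the share was 0%, with an upper bound of 0.250%.

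Macrophage Cdkn2a was uneven between libraries and between cells. The 12 libraries ran from 0.429 CPM in library 8 over a median of 1.55 to 5.93 in library 10, followed by 4.50 in library 12 and 3.26 in library 4. Of 595 macrophages with a Cdkn2a UMI, 37 had at least 3 and the highest had 13. Library 12 gave 13 of these 37 cells. Cdkn2b was found in 21.6% of the 37, against 0.839% of macrophages without Cdkn2a, at median depths of 14304 and 6362 UMIs. Trac, a T cell receptor gene, was found in 2.70% and 0.839%, in a class whose gate leaves out cells with Cd3 UMIs. In conventional CD4+ T cells, Cdkn2b was found in 28.6% of the 28 cells with Cdkn2a and in 3.73% of the others, at median depths of 5717 and 3499 UMIs. The part of depth in these shares was not tested.

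Cdkn2b, the p15Ink4b gene next to Cdkn2a, was highest in mature dendritic cells, the Ccr7-positive cells that migrate to lymph nodes. They had 23.7 CPM (19.3 to 28.9), with UMIs in 11 of 12 libraries and up to 45.0 CPM in library 2. Library 10, with 20 such cells, had none. Conventional CD4+ T cells had 11.7 CPM, CD8+ T cells 4.45 and macrophages 1.26. Mature dendritic cells were above macrophages in 11 of 12 libraries, above CD8+ T cells in 10 of 11 and above conventional CD4+ T cells in 8 of 9. No Cdkn2b UMI was found in NK cells, B cells, plasmacytoid dendritic cells, Cd209a dendritic cells or patrolling monocytes. Type 1 dendritic cells, the other dendritic class with many cells, had 3 UMIs in 822 cells. Cdkn2a and Cdkn2b, the neighbours of 1 locus, thus had their highest levels in different classes.

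Cdkn2c, or p18Ink4c, and Cdkn2d, or p19Ink4d, had UMIs in all classes. Cdkn2c had 3 to 10 UMIs in B cells, Cd209a dendritic cells, neutrophils and patrolling monocytes, which is not read as expression. Cdkn2c was at 38.8 CPM in plasmacytoid dendritic cells, 34.6 in conventional CD4+ T cells, 30.7 in CD8+ T cells, 23.6 in both NK cells and type 1 dendritic cells, 17.3 in macrophages, 4.82 in Ly6c2 monocytes and 3.15 in neutrophils. The intervals of the highest 3 overlapped. Cdkn2d was at 166 CPM (134 to 204) in plasmacytoid dendritic cells, 119 in Cd209a dendritic cells, 77.1 in neutrophils, 64.2 in patrolling monocytes, 25.7 in macrophages and 8.39 in mature dendritic cells. Only 2 libraries held 20 plasmacytoid dendritic cells, with 84.9 and 128 CPM, and no library held 20 Cd209a dendritic cells. Cdkn2d was higher in neutrophils than in macrophages in 10 of 10 libraries, and lower in mature dendritic cells than in macrophages in 12 of 12.

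Cycling cells were those with at least 1 UMI each of Mki67 and Top2a, both expressed in dividing cells, and these 2 genes are not results. They made up 14.3% of macrophages (8314 of 58313), 14.2% of CD8+ T cells (484 of 3412), 20.3% of type 1 dendritic cells (167 of 822) and 7.02% of conventional CD4+ T cells (49 of 698), but 0.0678% of neutrophils. The gate depends on depth, with medians of 1417 UMIs in neutrophils and 6392 in macrophages, and the part of depth in these shares was not tested. Cycling cells were deeper, with a median of 11212.5 against 5829 UMIs in macrophages and 5345 against 2856 in CD8+ T cells, so levels in CPM are compared. A gene was called where the pooled CPM of the 2 sets differed at least 2-fold, among genes with at least 50 UMIs in both sets together. The ratio in a library was taken where it held at least 20 cells of each set.

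In macrophages, Cdkn2c and Cdkn2d were higher in cycling cells and the 3 CIP/KIP members were not called. Of the 7 members, 2 were called higher and 0 lower, against 5.24% of all 13884 genes tested called higher and 2.82% lower. Cdkn2c was at 52.3 CPM in cycling and 8.02 CPM in other macrophages, a ratio of 6.52 (exact binomial 95% interval 6.23 to 6.83). Its library ratios ran from 3.57 in library 8 to 10.2 in library 11. Cdkn2d was at 65.8 and 15.0 CPM, a ratio of 4.38 (4.22 to 4.54), with library ratios from 2.49 in library 8 to 7.64 in library 10. Both were higher in cycling cells in 12 of 12 libraries, as were 17.0% of all genes tested, and 7.94% of genes were lower in all 12. In cells thinned to 2000 UMIs, 9.95% of 8295 cycling and 1.69% of 46202 other macrophages had a Cdkn2c UMI, and 11.8% and 2.92% a Cdkn2d UMI. Unthinned, the shares were 38.4% and 5.31% for Cdkn2c and 40.8% and 9.20% for Cdkn2d.

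The other members of macrophages were nearer to equal levels. Cdkn1a had a ratio of 0.964 (0.955 to 0.974) and was higher in cycling cells in 5 of 12 libraries. Cdkn1b had a ratio of 1.06 (1.02 to 1.10) and was higher in 9 of 12. Cdkn1c had 1.61 (1.30 to 1.99) in 9 of 12 and Cdkn2b 1.10 (0.894 to 1.34) in 7 of 12, at 0.840 to 1.35 CPM. The counting intervals do not hold the spread between libraries, which ran from 0.869 to 1.13 for Cdkn1a and from 0.847 to 1.41 for Cdkn1b.

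Cdkn2a in macrophages had a pooled ratio of 1.77 (1.52 to 2.06), and the libraries fell on both sides of 1. In 10 libraries the ratio was between 2.05 and 6.95. In library 10 it was 0.431, with 6 UMIs in cycling and 68 in other cells, and in library 12 it was 0.464, with 6 and 109. These are the libraries with the highest macrophage Cdkn2a. Without library 12 the pooled log2 ratio was 1.07, past 2-fold, against 0.83 with all libraries. Among macrophages with at least 1 Cdkn2a UMI, 37.5% were cycling, against 14.0% of those without, at median depths of 9837 and 6362 UMIs. Of the 37 with at least 3 UMIs, 10.8% were cycling, at a median depth of 14304 UMIs. The part of depth in these shares was not tested.

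**Figure D3:**
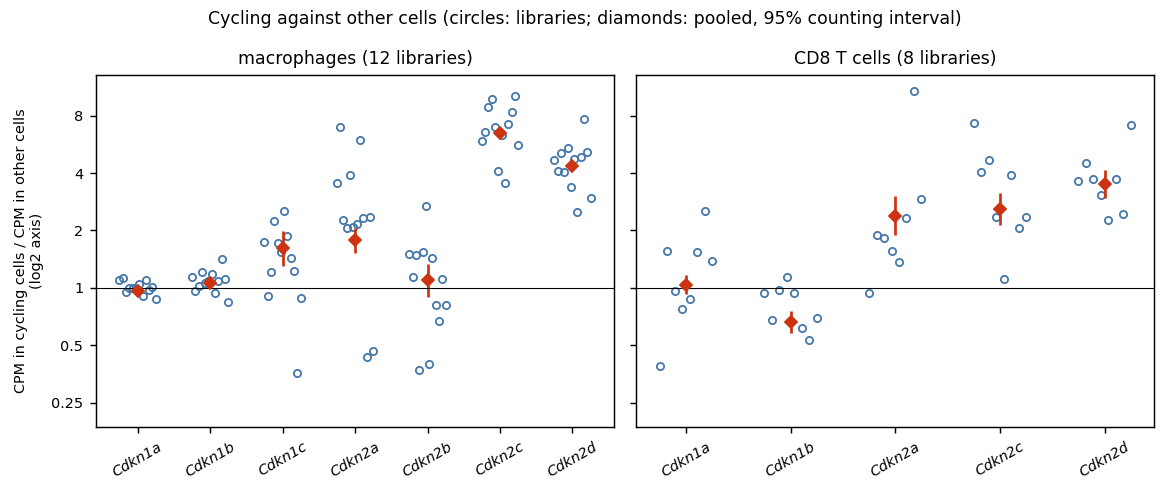
Ratio of the CPM in cycling cells to that in other cells of the class (y axis, log2 scale) for each member (x axis). Circles are libraries with at least 20 cells of each set and diamonds are pooled cells with 95% counting intervals. Cdkn2c and Cdkn2d lie above 1 in every library of both classes, and Cdkn1c and Cdkn2b are not drawn for CD8+ T cells because some of their libraries were at 0.

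In CD8+ T cells, Cdkn2a, Cdkn2c and Cdkn2d were higher in cycling cells and Cdkn1b was lower without reaching 2-fold. Of the 6 members with enough UMIs, 3 were called higher and 0 lower, against 5.46% and 3.92% of 9665 genes. Cdkn2d was at 87.2 CPM in cycling and 24.8 CPM in other cells, a ratio of 3.51 (2.96 to 4.16) with library ratios of 2.26 to 7.12. Cdkn2c was at 57.6 and 22.2 CPM, a ratio of 2.60 (2.13 to 3.15) with library ratios of 1.12 to 7.35. Both were higher in 8 of 8 libraries, as were 9.34% of all genes, and 5.77% of genes were lower in all 8. The lowest ratio of each was in library 6, the library with C1q UMIs at 17.3% of the macrophage level. Cdkn2c was at 32.8 CPM in cycling and 29.4 CPM in other CD8+ T cells of that library. A link between these ratios and the C1q UMIs was not tested.

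Cdkn2a was at 37.9 CPM in cycling and 15.9 CPM in other CD8+ T cells, a ratio of 2.39 (1.88 to 3.03), and was higher in 7 of 8 libraries. Library 8 had a ratio of 10.8, from 19 UMIs in 26 cycling cells and 11 UMIs in 367 others, and the other 7 libraries had 0.942 to 2.91. Without library 8 the pooled log2 ratio was 0.94 and the 2-fold call was lost. Of CD8+ T cells with Cdkn2a, 39.0% were cycling, against 12.5% of those without, at median depths of 5751 and 3039.5 UMIs. Cdkn1b was at 84.8 and 128 CPM, a ratio of 0.661 (0.580 to 0.752), and was lower in cycling cells in 7 of 8 libraries. Its library ratios ran from 0.535 to 1.14 over a median of 0.816, nearer to 1 than the pooled ratio. Library 8 gave 493 of the 1358 UMIs of other cells and 42 of the 284 of cycling cells. Cdkn1a had a ratio of 1.04 (0.923 to 1.17) and was higher in 4 of 8 libraries, from 0.388 to 2.53. Cdkn2b, with 62 UMIs, had a ratio of 0.608 (0.275 to 1.21).

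Type 1 dendritic cells and conventional CD4+ T cells gave fewer cycling cells. In type 1 dendritic cells, Cdkn2d had 75.5 and 17.2 CPM, a ratio of 4.38 (3.23 to 5.98), and Cdkn2c 43.6 and 16.0 CPM, a ratio of 2.72 (1.91 to 3.89). Both were higher in 3 of 3 libraries, which 20.1% of all genes also were, while 16.2% were lower in all 3. In libraries 2, 5 and 6 the ratios were 3.57, 6.75 and 1.30 for Cdkn2d and 3.09, 2.64 and 2.23 for Cdkn2c. Library 6 held only 3 Cdkn2d UMIs in its 54 cycling cells. Of the 4 members with enough UMIs no other was called, against 5.39% of 7218 genes called higher and 1.62% lower. In conventional CD4+ T cells no library held 20 cycling cells. Pooled, Cdkn2d had a ratio of 2.07 (1.34 to 3.11) and Cdkn2c 1.67 (1.01 to 2.66), with 32 and 23 UMIs in cycling cells. Cdkn2a had a ratio of 0.366 there, on 3 UMIs in cycling cells with an interval of 0.0731 to 1.13, so its 2-fold difference lies within counting error. Of the 5 members with enough UMIs 1 was past 2-fold higher and 1 lower, against 5.79% and 9.08% of 6290 genes. Cdkn1b, at 0.643 (0.470 to 0.864), was not called.

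Genes of the same pathway were read from lists, against 5.24% of all genes called higher and 2.82% lower in macrophages and 5.46% and 3.92% in CD8+ T cells. A count of 0 or 1 in a list of this size is near those shares and is no result about the list. All 7 later cyclins and kinases were called higher in cycling macrophages and in cycling CD8+ T cells, with median log2 ratios of 2.94 and 3.14 against -0.00 and -0.03 over all genes. The D cyclins and their kinases Cdk4 and Cdk6, which the INK4 proteins bind at the kinase, formed a list of 5. Of these 5, 0 was called in macrophages and only Ccnd2, at a ratio of 0.484, in CD8+ T cells. Cdk4 had ratios of 1.77 and 1.87 and was higher in every library of both classes, as were 17.0% and 9.34% of all genes, and Cdk6 had 1.00 and 0.943. Of 9 pocket proteins and E2F genes, 4 were called higher in macrophages and 6 in CD8+ T cells. These included E2f8, a repressor of the family, at 7.65 and 10.5, and Rbl1, the p107 gene, at 3.59 and 2.38.

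The list of p27 turnover held Skp2, the ubiquitin ligase subunit that recognises p27, at ratios of 2.69 in macrophages and 4.29 in CD8+ T cells, and Cks1b, its cofactor, at 5.44 and 7.03. Skp1a and Cul1, shared by many ligases, had ratios of 1.06 to 1.21. Of 14 p53 targets other than Cdkn1a, 13 were tested and 0 was called in either class, near the shares over all genes, with median log2 ratios of -0.22 and -0.41. Their ratios in macrophages ran from 0.501 for Gadd45a to 1.10 for Aen, and Mdm2, the p53 ligase gene, had 0.955 beside 0.964 for Cdkn1a. Sesn2, Trp53inp1 and Gadd45a were lower in cycling macrophages in 12 of 12 libraries, as were 7.94% of all genes tested. Among 7 polycomb genes, Ezh2 had ratios of 4.75 and 3.72 and Suz12 2.03 and 2.09, and these 2 were called in both classes. Ezh1, the other methyltransferase of polycomb repressive complex 2, had 0.690 and 0.720. Of 6 quiescence factors, 0 was called in macrophages and Btg1, at 0.488, in CD8+ T cells. Their median log2 ratio in macrophages was -0.40, and 4 of them, Klf4, Foxo1, Foxo3 and Btg1, were lower in 12 of 12 libraries, as were 7.94% of all genes, at ratios of 0.663 to 0.790. In type 1 dendritic cells the median over the 4 tested genes of the list was 0.30, with Klf2 at 1.71 and Klf4 at 1.24, both higher in 3 of 3 libraries, as were 20.1% of all genes, and Btg1 at 0.803.

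Macrophages were further divided by cyclin UMIs, a division chosen after the cycling ratios were seen. E cyclins (Ccne1, Ccne2) act at entry into S phase and B cyclins (Ccnb1, Ccnb2) in mitosis. Cdkn2c was at 8.41 CPM in 45056 cells with neither, 20.5 in 3164 with E cyclins only, 48.4 in 1528 with both and 40.3 in 8565 with B cyclins only. Cdkn2d was at 15.4, 20.4, 60.0 and 56.1 CPM in the same cells. In these sets 4.33%, 40.4%, 82.0% and 44.7% of cells were cycling by Mki67 and Top2a, at median depths of 5535, 10168.5, 13298.5 and 8967 UMIs. The sets thus overlap with the cycling division and differ in depth, and the part of either in these levels was not tested. Against cells with neither, cells with E cyclins only had a ratio of 2.43 (2.23 to 2.65) for Cdkn2c, higher in 12 of 12 libraries, and of 1.33 (1.22 to 1.44) for Cdkn2d, higher in 11 of 12. Cells with B cyclins only had 4.79 (4.55 to 5.04) and 3.64 (3.50 to 3.79), both in 12 of 12. Between the last 2 sets Cdkn2d was 2.75-fold higher with B cyclins (2.54 to 2.98) and Cdkn2c 1.97-fold (1.81 to 2.14), each in 12 of 12 libraries. Cdkn1a was lower than in cells with neither cyclin in both sets, at ratios of 0.850 and 0.811 and in 12 of 12 libraries each, but stood at 536 CPM in cells with both, against 563 in cells with neither. Cdkn1b stayed between 35.8 and 41.8 CPM in all 4 sets. The share of all genes with such ratios or counts of libraries was not computed for these sets. For cycling against other macrophages, 17.0% of all genes were higher in all 12 libraries.

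**Figure D4:**
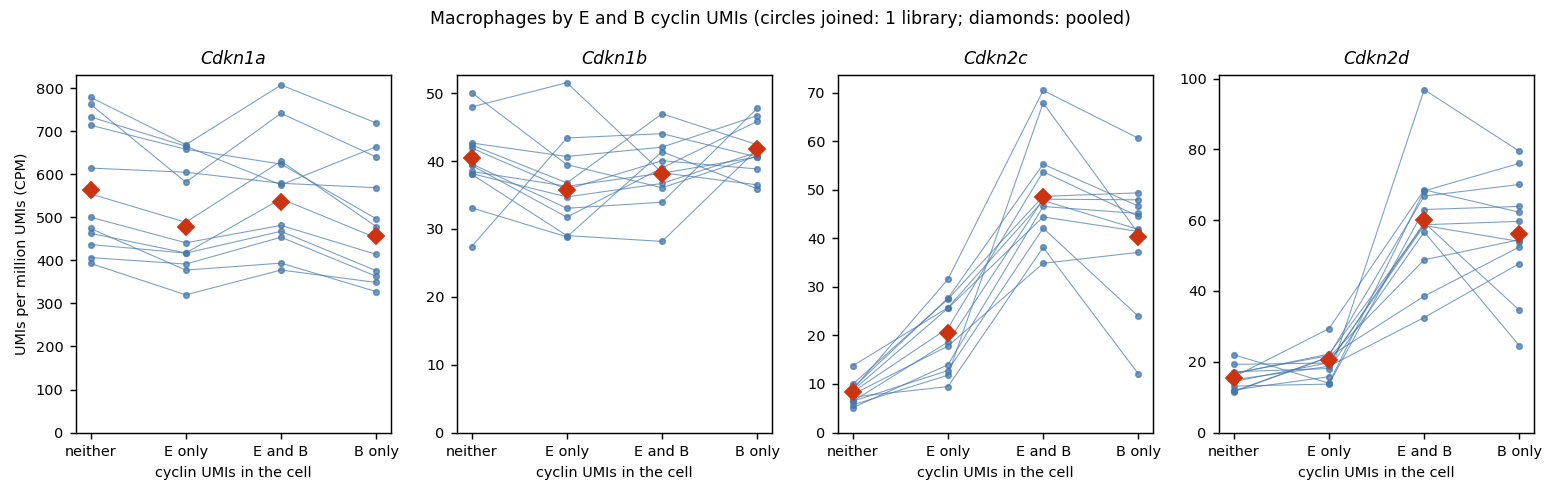
CPM (y axis) of Cdkn1a, Cdkn1b, Cdkn2c and Cdkn2d in macrophages with neither cyclin, E cyclins only, both, or B cyclins only (x axis). Joined circles are the 12 libraries and diamonds are pooled cells. Cdkn2c rises from neither to E only in every library, and Cdkn2d mainly from E only to the sets with B cyclins.

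Among functional states of macrophages, Cdkn2a was highest in cells with Folr2 and Mrc1, markers of resident-like macrophages. They had 3.69 CPM, against 2.01 in cells with Arg1 and 1.51 in cells with Cxcl9. The Folr2 and Mrc1 cells were above the Arg1 cells in 11 of 12 libraries, the exception being library 12 at 7.00 and 7.82 CPM, and above the Cxcl9 cells in 10 of 12. Library 10 was highest in the Folr2 and Mrc1 cells and in the Arg1 cells, at 25.4 and 10.6 CPM. Between the Arg1 and the Cxcl9 cells the libraries were split, 6 of 12 in each direction. Cdkn2b was also highest in the Folr2 and Mrc1 cells, at 1.71 CPM against 1.28 in Arg1 cells and 1.10 in Cxcl9 cells, in 10 and 11 of 12 libraries. Its Arg1 and Cxcl9 cells were not separated, with a ratio of 1.16 (0.827 to 1.66). Cdkn1a was at 459 CPM in Folr2 and Mrc1 cells, 500 in Cxcl9 cells and 543 in Arg1 cells. The Arg1 cells were above the Folr2 and Mrc1 cells in 12 of 12 libraries, and the Cxcl9 cells in only 6 of 12. The 3 states held 14.9%, 13.4% and 14.9% cycling cells, and a Folr2 and Mrc1 cell may also be in one of the other 2. The share of all genes with such counts of libraries was not computed for these states.

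CD8+ T cells that were not cycling were divided by Tcf7, a gene of naive and stem-like T cells, and Havcr2, which encodes the exhaustion marker TIM-3. Cdkn1a was at 156 CPM in 513 Havcr2 cells and 75.0 in 298 Tcf7 cells, a ratio of 2.08 (1.65 to 2.64), in 3 of 3 libraries with 20 cells of each. Cdkn1b was at 108 and 174 CPM, a ratio of 0.618 (0.516 to 0.742), lower in the Havcr2 cells in 3 of 3. Within these libraries, Cdkn1a was at 176 and 65.9 CPM in library 2, 184 and 166 in library 5, and 43.0 and 31.3 in library 8. Cdkn1b was at 96.4 and 169, 70.8 and 87.4, and 193 and 251 CPM. The pooled ratio thus also holds differences between libraries, and library 6, with C1q UMIs at 17.3% of the macrophage level, gave 113 of the Havcr2 cells, at 275 CPM of Cdkn1a. Cdkn2a had 55 UMIs in Havcr2 cells and 3 in Tcf7 cells, a ratio of 8.06 with an interval of 2.62 to 40.3, higher in 3 of 3 libraries. By library, the Tcf7 cells ran from 0 to 17.5 CPM over 4 libraries and the Havcr2 cells from 8.69 to 34.4 CPM over 8. These ranges are thus not limited to the 3 libraries compared. This pooled ratio also holds differences between libraries, which its interval does not cover. With cycling cells included, 111 and 19 UMIs gave a ratio of 2.12 (1.30 to 3.65), in 4 of 4 libraries. Against CD8+ T cells with neither gene, which had 17.0 CPM of Cdkn2a, the ratio was 1.19 (0.842 to 1.65). Over all 6736 genes tested 5.98% were at least 2-fold higher and 2.15% lower in Havcr2 cells. The share of all genes higher or lower in every library was not computed for this division. The counts of 3 of 3 and 4 of 4 libraries are thus not read as support. The state genes lie within the class gate and depth differed, with medians of 4610 and 3397.5 UMIs.

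Of other genes, those most like each member over the 12 class profiles, by Pearson's r of log2(CPM + 1), were named with no claim on function. They were Il13ra1, Osm and Il1b for Cdkn1a (r 0.964 to 0.967), Mirt1, Btg1 and Syf2 for Cdkn1b (0.826 to 0.880) and Slamf1, Uhrf2 and Dusp4 for Cdkn2a (0.861 to 0.881). Itgb8, Arc and Insl6 were most like Cdkn2b (0.917 to 0.941), Smim8, Eif2d and Nde1 most like Cdkn2c (0.932 to 0.943), Tagap, Cyth4 and Gripap1 most like Cdkn2d (0.851 for Tagap), and Lig3, Camk2b and Gpr160 most like the barely detected Cdkn1c (0.842 to 0.903). The classes share libraries and differ in depth, and ranks gave 0 to 2 of the same 3 genes.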

How the data were processed

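Tumor-infiltrating CD45+ cells of 12 mice were profiled with a droplet 3′ kit. The authors deposited 1 matrix of UMI counts per gene and barcode, pooled over 12 libraries. The submitters' processing notes name Cell Ranger 2.1.1, Seurat and mm10, while the matrix header gives Cell Ranger 3.0.2. Following the study's methods, barcodes passed with over 200 genes, under 5000 genes and no more than 10% of UMIs from mitochondrial genes. These limits kept 128912 cells, fewer than the study counts after its own quality control, and even without the mitochondrial limit 136837 were kept, so the cells are not the study's set. Cells were gated on UMIs of lineage genes, for example at least 2 of Csf1r and Adgre1 with at least 10 of the C1q genes for macrophages. The 327 cells that met several gates were left out, which, with the limit on genes, was the treatment of doublets, and no doublet caller was run. The 59742 cells (46.3%) in no gate were not described.

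Counts were summed by class and library, with exact Poisson, binomial and Clopper-Pearson intervals at the 95% level. PCR and capture add error that these intervals do not hold. No test was run between libraries, since the sample labels give their numbers no group. The genes named are the 7 members, the genes of the pathway lists, and for each member the 3 genes of highest correlation over classes among genes with at least 20 CPM in 1 class. The members, lists and gates were chosen with earlier results of these data known. The interval and ratio code was tested on simulated data. Alternatives covered the totals, cell limits, gates, thinning and each library left out. Intervals came from scipy 1.17.1, tables from pandas 2.3.3 with numpy 2.4.6 and figures from matplotlib 3.10.9, under Python 3.11.15. Columns of per-sample values not used numbered 0.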

Additional observations from a re-analysis of the deposited data

Results flagged for a closer look

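In 4 of 14 values with at least 100 UMIs and between 4 and 10 libraries, 1 library lay apart from the others by Dixon's criterion. Chance alone meets it in about 1 in 20 groups of independent, normally distributed values. The CPM and ratios here share libraries and rest on uneven counts, so 4 of 14 is not read as an excess. Cdkn1b in patrolling monocytes was at 282 CPM in library 7, with the next of 5 libraries at 167. Cdkn2d in neutrophils was at 227 CPM in library 1, with the next of 10 libraries at 145. The ratio of cycling to other CD8+ T cells for Cdkn2a was 10.8 in library 8, with the next of 8 libraries at 2.91. The same ratio for Cdkn2d was 7.12 in library 9, with the next of 8 libraries at 4.53.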

How the results depend on the processing

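Of 692 values of 34 levels, ratios and counts of genes under the alternatives, 679 moved by less than the spread between libraries, or by less than 1.5 times for counts of genes, 13 moved further and no value past 2-fold changed direction. These include 34 values without library 4 and 34 without library 6, which leaving out each library in turn gives again. Leaving out each in turn gave 216 CPM values, 144 log2 ratios and 48 counts of genes, and none was counted as moved. Removing 1 library can hardly shift a pooled value by the whole spread, so these values say little on stability. A 2-fold call gained or lost, as for Cdkn2a in macrophages and CD8+ T cells, was not counted as a move. Dividing by totals without the 50 most abundant genes and the mitochondrial genes gave levels in macrophages of 744 CPM for Cdkn1a, 56.0 for Cdkn1b, 1.32 for Cdkn1c, 24.0 for Cdkn2c and 35.7 for Cdkn2d, a library median of 688 CPM for Cdkn1a and 216 CPM for Cdkn2d in plasmacytoid dendritic cells, since the totals are smaller. Equal weights for libraries gave 106 CPM for the last. With 2 UMIs of Mki67 and of Top2a, against cells with neither, the log2 ratio of Cdkn2c in macrophages was 3.20 and 622 genes were at least 2-fold lower there, against 391. With a minimum of 10 UMIs 958 genes were lower in cycling macrophages and 972 in cycling CD8+ T cells, against 379, and with Mki67 alone 244 were lower in CD8+ T cells. Leaving out each library gave 296 to 420 genes lower in macrophages, the fewest without library 4, and log2 ratios of Cdkn2a of 0.69 to 1.07 in macrophages and 0.94 to 1.38 in CD8+ T cells. The log2 ratio of Cdkn1a in CD8+ T cells, which was not called, was 0.06 and ran from -0.14 to 0.21, and so changed sign, as did that of Cdkn2b in macrophages, from 0.13 to -0.23 at a mitochondrial share of at most 5%. Shares of cells with a UMI moved in 13 of 14 cases on thinning to 1000 UMIs and in 13 of 14 to 2000, and ranks gave at most 1 of the same 3 most alike genes for 6 of 7 members. A macrophage gate with 89689 cells, chosen after seeing the data, moved no result of macrophages beyond the spread. No pairing by mouse or replicate was possible because the library numbers are tied to neither. Cells of the same library were compared in the library ratios and in the counts of libraries, and no paired test was run. Depth limits Cdkn1c in all classes, and Cdkn2a and Cdkn2b in classes with few cells.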

Other observations

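No member had a UMI in 8.13% of patrolling monocytes, 14.6% of Ly6c2 monocytes, 41.6% of CD8+ T cells and 72.0% of B cells. UMIs of at least 2 members were found in 60.2%, 34.1%, 20.2% and 3.86% of these cells, at median depths of 5148.5, 4171, 3186.5 and 1364 UMIs. The part of depth in these shares was not tested.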
